A study of Mus musculus with 17 samples.

Results

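This report describes the sperm supernatant series, 4 libraries in which mouse sperm chromatin was cut with 1, 5, 20 or 100 units of micrococcal nuclease (MNase) and the DNA left in solution after a spin was sequenced. The 4 libraries, chosen by the fraction and units given in their labels, are 4 of the 17 samples of a study that used MNase to map chromatin in mouse embryonic stem cells and sperm. The sperm came from C57/B6J mice of 10 weeks, were collected by swim-up from the caudal epididymis and vas deferens, and were crosslinked with formaldehyde. No antibody was used, and each dose is 1 library. A pellet series at the same units is used below only for comparison. How many sperm went into each titration digest is not stated, so a unit is a relative dose.

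MNase cuts the DNA between proteins and then trims the free ends, so that more enzyme releases more of the packaged DNA and also destroys what was released first. It is known to cut A+T-rich DNA faster than G+C-rich DNA. Most sperm DNA is wound on protamines, small basic proteins that replace histones late in sperm development, and a minority stays on nucleosomes. Promoters rich in CpG, the dinucleotide that carries DNA methylation, are mostly unmethylated and belong largely to housekeeping and developmental genes, whereas CpG-poor promoters belong largely to tissue-restricted genes.

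Each library is a table of counts in 200 bins along 5000 bp to each side of 16482 unique start sites, which the authors had classed by CpG content. The classes are read here as high-CpG (10576 start sites), intermediate-CpG (3073) and low-CpG (2833). To show what the sequence differences below look like, 4 promoters are printed as the 250 bases before the start site, 5′ to 3′ on the gene's strand, with each CpG in capitals. They are RefSeq sequences of GRCm38.p6. Olfr530, an olfactory receptor gene at chr7:140373609-140373858 on the minus strand, and Hyal5, a sperm hyaluronidase gene at chr6:24857747-24857996 on the plus strand, have low-CpG promoters with no CpG in this stretch and 36.0% and 37.2% G+C. Sspo, at chr6:48447924-48448173 on the plus strand, is also low-CpG with no CpG here, but has 54.8% G+C. Fgf4, a growth factor gene of the early embryo at chr7:144861136-144861385 on the plus strand, has a high-CpG promoter with 21 CpGs and 71.2% G+C.
Olfr530: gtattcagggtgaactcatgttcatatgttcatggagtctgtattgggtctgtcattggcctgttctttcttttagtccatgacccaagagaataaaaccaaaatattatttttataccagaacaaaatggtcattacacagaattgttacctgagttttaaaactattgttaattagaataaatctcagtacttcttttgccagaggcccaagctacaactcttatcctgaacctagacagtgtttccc
Hyal5: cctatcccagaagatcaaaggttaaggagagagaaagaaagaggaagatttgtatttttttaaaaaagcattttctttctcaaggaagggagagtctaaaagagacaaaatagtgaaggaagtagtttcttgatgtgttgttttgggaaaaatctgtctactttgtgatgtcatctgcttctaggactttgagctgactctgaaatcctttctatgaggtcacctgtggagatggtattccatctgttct
Sspo: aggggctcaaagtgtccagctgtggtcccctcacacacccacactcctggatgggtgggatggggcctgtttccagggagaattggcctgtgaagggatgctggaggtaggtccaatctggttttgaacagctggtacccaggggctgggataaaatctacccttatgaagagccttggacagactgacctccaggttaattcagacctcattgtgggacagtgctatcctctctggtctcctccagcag
Fgf4: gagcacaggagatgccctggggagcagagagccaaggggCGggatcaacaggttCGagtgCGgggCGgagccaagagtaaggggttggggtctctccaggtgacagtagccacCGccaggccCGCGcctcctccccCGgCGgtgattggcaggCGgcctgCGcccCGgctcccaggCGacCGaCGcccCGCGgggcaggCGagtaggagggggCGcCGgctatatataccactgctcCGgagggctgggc
Sspo and Olfr530 share a class and a CpG number and differ in G+C, and the dose series separated promoters of these kinds, as described below.

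The tables held 149758 counts at 1 unit, 118897 at 5 units, 176044 at 20 units and 226253 at 100 units. These are about 53734, 42661, 63165 and 81180 fragments at 2.79 counts each, a factor measured at 5, 20 and 100 units only. Within 1000 bp of the start site, 58.3%, 67.5%, 50.6% and 37.9% of promoters had no count at 1, 5, 20 and 100 units, so a single promoter is thinly covered and the results below are sums over many. The header numbers the bins in steps of 20 bp, but where windows of neighbouring genes overlap, 92.8% to 94.8% of their shared nonzero bins were equal at 50 bp per bin and 2.29% to 6.49% at 20 bp. All distances here use 50 bp. Intervals of shares and ratios are exact binomial 95% intervals on effective fragments. These are counts divided by 5.64 to 7.17 to allow for neighbouring and repeated marks. Intervals of slopes are 95% normal approximations from the same effective fragments. Those of cluster widths are exact binomial intervals on the number of clusters. All these intervals cover counting error only. With 1 library per dose they say nothing of the spread between digestions. An order of 4 doses can reach a two-sided exact permutation p of 0.0833 at best, so no trend below can pass 0.05. Slopes are log2 change per doubling of the units.

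The 1-unit library differed from the other 3 in the width of its signal. Isolated clusters of nonzero bins, at least 10 empty bins from any other, spanned 1 or 2 bins (at most 100 bp) in 77.2% of cases at 1 unit. At 5, 20 and 100 units that share was 3.28%, 4.00% and 3.54%. There, 86.2%, 79.0% and 74.5% of isolated clusters spanned 3 to 5 bins, up to 250 bp, and 84.4%, 76.7% and 74.5% of those had an empty bin inside, the pattern of 2 separate ends of 1 fragment. At 1 unit the 2 ends could not be seen apart. The 2.79 counts per fragment came from isolated clusters of 3 to 5 bins with at most 1 count per bin at 5, 20 and 100 units. Every number of fragments that includes the 1-unit library therefore uses a factor not measured in it. The fragment sizes behind the tables are not stated, so slopes of the main results are also given without the 1-unit library.

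**Figure D1:**
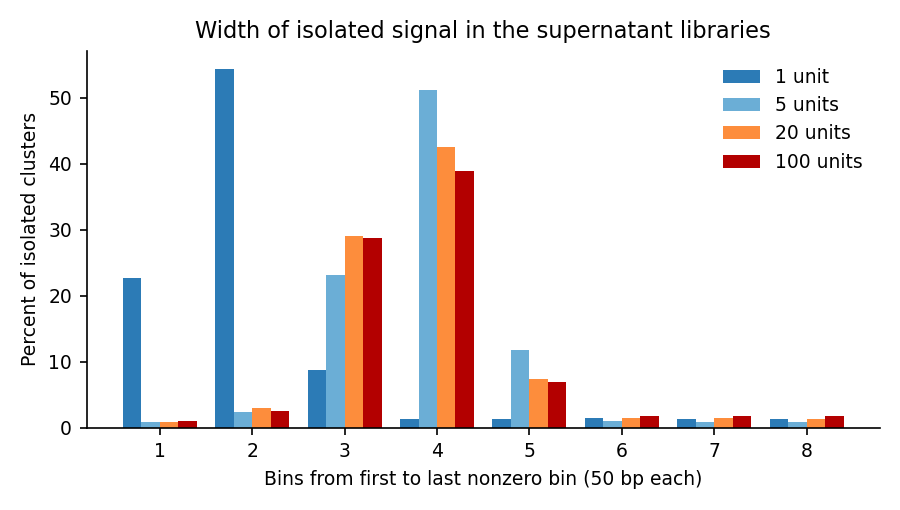
Percent of isolated clusters (vertical axis) by the number of 50 bp bins from their first to their last nonzero bin (horizontal axis), with bars for each dose. The 1-unit bars peak at 2 bins with 54.4% of clusters, and the other doses peak at 4 bins with 51.2%, 42.5% and 38.9%.

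Among the 3 libraries with visible ends, the clusters of up to 5 bins were also narrower at higher doses. Clusters of more than 5 bins are not in the shares below. Their part of all isolated clusters was larger at each successive dose, from 10.6% at 5 units to 21.9% at 100 units. The shares below therefore do not describe the width of all clusters. Of the clusters of up to 5 bins lying 2000 to 4000 bp from a start site, 29.1% (interval 28.2% to 30%) spanned at most 3 bins at 5 units, 39.6% (38.8% to 40.4%) at 20 units and 41.5% (40.8% to 42.3%) at 100 units. Most of the difference lay between 5 and 20 units. Around high-CpG start sites at 100 units, fewer clusters spanned at most 3 bins than far away. The share was 36.5% (34.8% to 38.2%) within 500 bp, against 41.7% (40.8% to 42.7%) at 2000 to 4000 bp. At 20 units the same shares were 36.6% (34.7% to 38.6%) and 39.9% (38.9% to 40.9%), also with intervals apart. At 5 units they were 27.5% and 28.4%, with overlapping intervals. The share of clusters of only 1 or 2 bins went the other way at 100 units. It was 5.57% (4.80% to 6.43%) within 500 bp of high-CpG start sites and 4.19% (3.81% to 4.59%) at 2000 to 4000 bp. At 5 and 20 units the intervals of that share overlapped.

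The first question was how the enzyme dose moved the signal between promoter classes. High-CpG promoters held 58.7% (57.3% to 60.1%) of the counts within 1000 bp at 1 unit, 61.7% (60.1% to 63.3%) at 5 units, 64.2% (62.9% to 65.5%) at 20 units and 67.9% (66.8% to 69.0%) at 100 units. The share was higher at each successive dose, and the intervals of 1, 20 and 100 units do not overlap. The low-CpG share ran the other way, at 21.0%, 19.2%, 17% and 15.5%, and so did the intermediate-CpG share, at 20.3%, 19%, 18.8% and 16.6%. Per promoter, low-CpG start sites carried 1.22 times the mean of all promoters at 1 unit and 0.903 times at 100 units, while high-CpG start sites went from 0.915 to 1.06. The slopes were 0.031 (0.025 to 0.037) for high-CpG, -0.041 (-0.057 to -0.025) for intermediate-CpG and -0.068 (-0.084 to -0.052) for low-CpG promoters, each with exact permutation p = 0.0833, also after Benjamini-Hochberg adjustment over the 3 classes. Without the 1-unit library the slopes were 0.032, -0.048 and -0.072.

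The dose slopes of the class shares were larger within 500 bp of the start site than beyond 1000 bp. Within 250 bp the high-CpG share was 56.5%, 60.3%, 62.4% and 68.7% at the 4 doses. At 3000 to 5000 bp it was 63.3%, 65%, 65.6% and 66.1%. Near the start site the 1-unit library was thus below its own distant level and the 100-unit library above it. The slope was 0.041 within 250 bp, 0.046 at 250 to 500 bp, 0.020 at 500 to 1000 bp and 0.009 at 3000 to 5000 bp. Without the 1-unit library these slopes were 0.044, 0.049, 0.017 and 0.005. Taken over the whole 5000 bp to each side, the slope was 0.013. The low-CpG share kept part of its slope at a distance, with -0.083 (-0.115 to -0.051) within 250 bp and -0.030 (-0.042 to -0.018) at 3000 to 5000 bp.

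**Figure D2:**
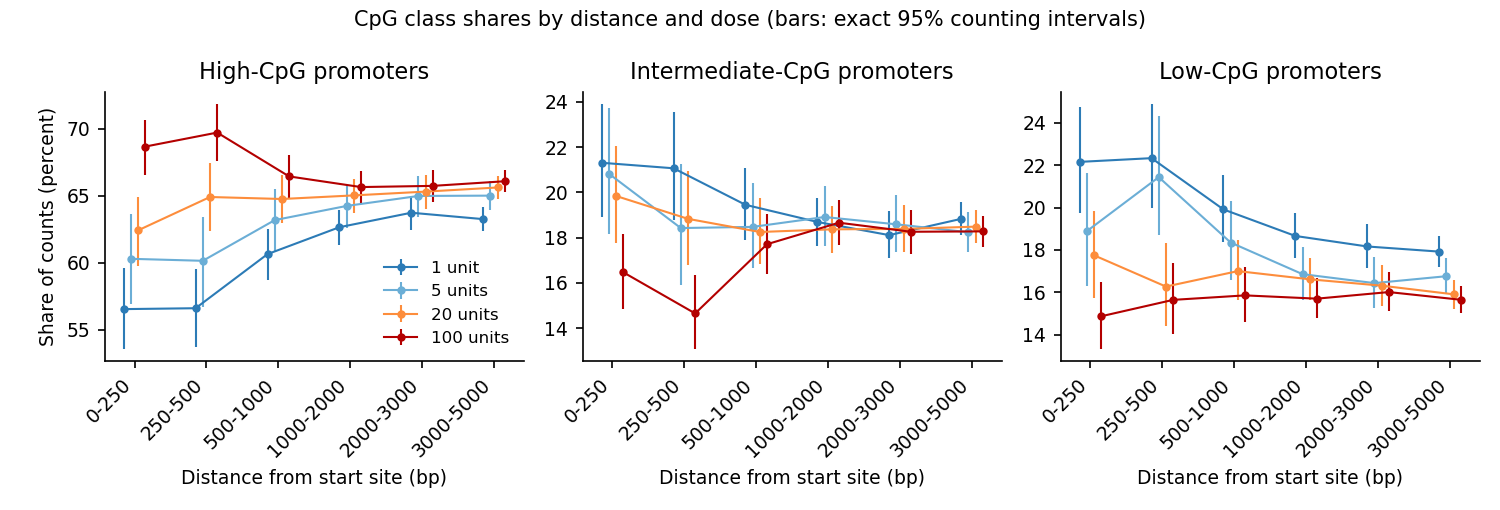
Share of the counts (vertical axis, percent) held by each CpG class, by distance from the start site on either side (horizontal axis), with points for the 4 doses and bars for exact 95% counting intervals. For high-CpG promoters the doses spread from 56.5% to 68.7% within 250 bp and lie between 63.3% and 66.1% at 3000 to 5000 bp.

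The pooled profiles showed which side of the start site carried the difference. Over the 300 bp downstream of high-CpG start sites, relative to the flanks at 1000 to 2000 bp, the ratio was 0.630 (0.560 to 0.709) at 1 unit, 0.926 (0.821 to 1.04) at 5 units, 1.06 (0.973 to 1.16) at 20 units and 1.69 (1.57 to 1.81) at 100 units. The start of the gene therefore went from a dip at the lowest dose to a peak at the highest, a 2.68-fold difference between the ends of the series. The intervals of the 1-unit and 100-unit libraries overlap with no other dose. The slope was 0.20 (0.18 to 0.23) with exact permutation p = 0.0833 (0.167 adjusted over 6 ratios), and 0.20 without the 1-unit library.

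Upstream the picture was flatter. Over the 200 bp before high-CpG start sites the ratio was 0.848 at 1 unit, 0.917 at 5 units, 0.838 at 20 units and 1.13 at 100 units. The 3 lower doses overlap in their intervals and have no order, and only the 100-unit library stands above 1, at 1.02 to 1.25. The slope of 0.052 (0.019 to 0.085, exact permutation p = 0.333) rested on that library, and was -0.0025 without it. Counts over the 200 bp downstream divided by those over the 200 bp upstream gave 0.741 (0.617 to 0.891), 1.00 (0.820 to 1.22), 1.25 (1.07 to 1.46) and 1.48 (1.31 to 1.67), so the balance passed from upstream to downstream with dose.

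The lowest and highest points of the smoothed profile within 2000 bp also differed between doses. For high-CpG promoters at 1 unit the lowest point lay 125 bp downstream, at 0.582 times the level at 3000 to 5000 bp. At 5 and 20 units the lowest points lay upstream, at -275 bp (0.785) and -125 bp (0.816). The 5-unit profile was flat there. Its 250 bp windows from -500 to 1000 bp stood at 0.813 to 0.846 with overlapping intervals, so the place of its lowest point is not resolved. At 100 units the highest point lay at 175 bp downstream, with 1.64 times the distant level.

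The other classes shared the downstream gain at smaller size. The downstream ratio of low-CpG promoters was 1.01 (0.843 to 1.20), 1.21 (0.980 to 1.50), 1.11 (0.927 to 1.32) and 1.44 (1.23 to 1.68) at 1, 5, 20 and 100 units. That of intermediate-CpG promoters was 0.957, 1.02, 1.14 and 1.31. Neither class had the dip of the high-CpG promoters at 1 unit, and both had a highest point at 100 units, 1.42 at 175 bp for low-CpG and 1.30 at 125 bp for intermediate-CpG promoters. The high-CpG ratio divided by the low-CpG ratio was 0.624, 0.763, 0.958 and 1.17, a slope of the difference of 0.14 (0.083 to 0.195) with exact permutation p = 0.0833, and 0.14 without the 1-unit library. Against the intermediate-CpG class the quotient was 0.659, 0.910, 0.930 and 1.28.

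**Figure D3:**
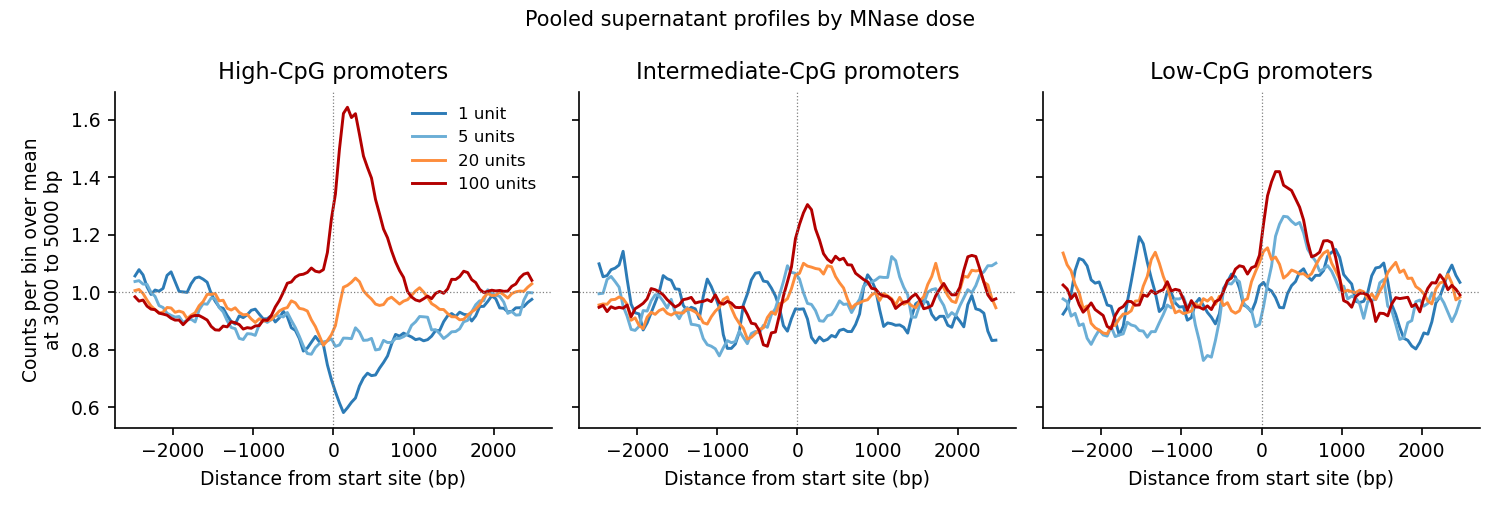
Pooled counts per 50 bp bin, smoothed over 5 bins and divided by the mean at 3000 to 5000 bp (vertical axis), against distance from the start site in bp (horizontal axis; downstream is positive), for the 3 CpG classes and 4 doses. High-CpG promoters go from a low of 0.582 at 1 unit to a peak of 1.64 at 100 units, and low-CpG promoters peak at 1.42 at 100 units without a dip at 1 unit.

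Sequence was then followed directly, since the class labels join CpG number with base composition. A single RefSeq promoter could be matched by symbol to 10554 start sites, of which the 250 bases upstream had a median of 17 CpGs and 61.6% G+C in the high-CpG class, 4 and 49.6% in the intermediate-CpG class and 1 and 44.4% in the low-CpG class. Promoters of under 40% G+C (1031 start sites) carried 1.30, 1.05, 0.759 and 0.598 times the mean promoter at 1, 5, 20 and 100 units. Promoters of 65% G+C and above (2518) carried 0.857, 0.919, 0.992 and 1.11 times. Between 50% and 60% G+C the values stayed between 1.00 and 1.09 at every dose, and the slopes followed G+C in order from -0.17 in the lowest stratum to 0.057 in the highest. Without the 1-unit library they ran from -0.19 to 0.065, with the strata from 50% to 60% out of order.

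Within the low-CpG class the same order appeared. Low-CpG promoters of under 42% G+C (801 start sites, the kind shown by Olfr530 and Hyal5) stood at 1.34 (1.19 to 1.50), 1.04 (0.891 to 1.22), 0.742 (0.641 to 0.856) and 0.586 (0.507 to 0.675) at the 4 doses. Low-CpG promoters of 54% G+C and above (383, the kind shown by Sspo) stood at 1.08 (0.894 to 1.30), 1.19 (0.957 to 1.46), 1.25 (1.07 to 1.47) and 1.29 (1.12 to 1.48). The first group had the higher value at 1 unit, with overlapping intervals, and the lower value at 20 and 100 units, with intervals apart. Their slopes were -0.19 (-0.22 to -0.15) and 0.038 (-0.008 to 0.085), and -0.19 and 0.027 without the 1-unit library.

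Within a narrow range of G+C, CpG number gave no such order. Among promoters of 50% to 60% G+C, those with 0 to 3 CpGs (527) stood at 0.979, 1.04, 1.28 and 1.18, and those with 12 or more CpGs (1479) at 0.989, 1.03, 0.955 and 0.906. The promoters with fewer CpGs were the higher at 20 and 100 units, with intervals apart at both, the reverse of the class shares. Among promoters with 5 to 14 CpGs, those under 50% G+C stood at 0.963, 0.955, 0.957 and 0.847, and those of 60% and above at 0.933, 1.03, 1.08 and 1.20. The median CpG numbers of these 2 groups were 7 and 12, so CpG number was not matched between them.

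The G+C order reached beyond the promoter. At 3000 to 5000 bp from the start site, low-CpG genes with an upstream stretch under 42% G+C stood at 1.12 (1.03 to 1.22), 0.873 (0.777 to 0.975), 0.671 (0.603 to 0.744) and 0.602 (0.542 to 0.669) times the mean of all genes at that distance. Those of 54% and above stood at 0.901, 1.06, 1.16 and 1.22. The G+C of the distant DNA itself was not measured. The downstream gain was seen in A+T-rich promoters too: in the promoters of under 40% G+C the downstream ratio was 0.905 (0.655 to 1.21) at 1 unit and 1.80 (1.31 to 2.46) at 100 units, against 0.567 (0.432 to 0.727) and 1.70 (1.47 to 1.96) at 65% and above. The part of enzyme preference, library amplification or chromatin in the G+C order was not tested.

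**Figure D4:**
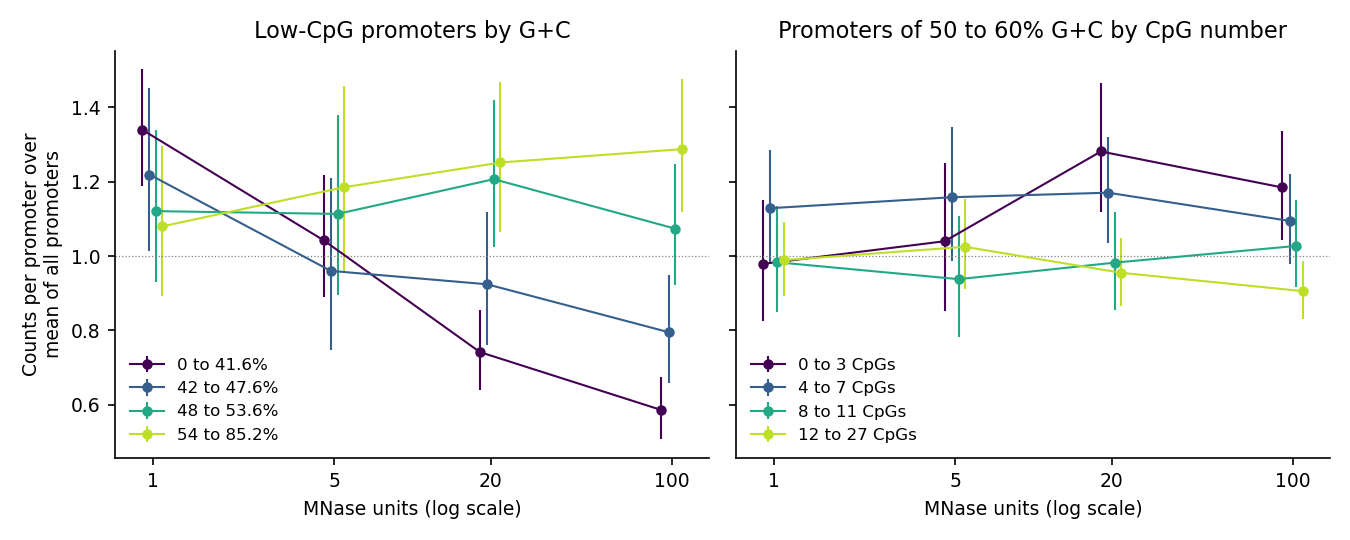
Counts within 1000 bp per promoter divided by the mean of all promoters (vertical axis) against MNase units on a log scale (horizontal axis), with exact 95% counting intervals as bars. The left panel splits low-CpG promoters by the G+C of the 250 bases upstream, and the lowest stratum goes from 1.34 to 0.586. The right panel splits promoters of 50% to 60% G+C by their CpG number, and those with 0 to 3 CpGs lie above those with 12 or more at 20 and 100 units.

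Gene families were followed as counts within 1000 bp per member promoter over the mean of all promoters, for 27 lists. Of these, 5 had a slope whose counting interval excluded 0, 3 of them below 0 and 2 above. The smallest exact permutation p, 0.0833, was reached by 6 lists and became 0.375 after Benjamini-Hochberg adjustment over the 27.

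The chemosensory receptors, the proteins by which sensory cells detect odours, pheromones and tastes, had the largest slopes in size among these 5 lists. The 850 promoters of olfactory receptors stood at 1.29 (1.15 to 1.45) at 1 unit, 1.14 (0.981 to 1.31) at 5 units, 0.800 (0.696 to 0.913) at 20 units and 0.612 (0.534 to 0.700) at 100 units. They were above the mean promoter at the lowest dose and below it at the upper 2, with a slope of -0.17 (-0.21 to -0.13). Without the 1-unit library the slope was -0.21. Their counts were spread over many members: 413, 286, 352 and 392 of the 850 promoters had a count at the 4 doses, and no member held over 1.19% of the sum. These are 48.6%, 33.6%, 41.4% and 46.1% of the receptors, beside 41.7%, 32.5%, 49.4% and 62.1% of all promoters.

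The loci of the olfactory receptors differed in level and had the same direction. On each of the 11 chromosomes with at least 20 receptor promoters the value was lower at 100 units than at 1 unit, and on 5 of them it was lower at each successive dose. The 1-unit and 100-unit intervals lay apart on chromosomes 2, 7, 9, 16 and 19. They overlapped on chromosomes 1, 6, 10, 11, 14 and 17. The 223 promoters on chromosome 2 stood at 1.29, 0.965, 0.697 and 0.535. The 197 promoters on chromosome 7 stood at 1.27, 1.30, 0.965 and 0.715. Olfr683 and Olfr530, the members with the most counts, had 8, 6, 0 and 19 counts and 5, 0, 8 and 16 counts within 1000 bp at the 4 doses, so neither showed the order of the sum. How reads that fit several near-identical copies were counted is not stated, so counts may be shared or lost among close relatives.

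The 66 vomeronasal receptor promoters, 64 of them of the Vmn1r pheromone receptor group, stood at 1.49 (0.980 to 2.14), 1.16 (0.669 to 1.91), 0.845 (0.520 to 1.35) and 0.521 (0.296 to 0.872). The slope was -0.23 (-0.36 to -0.10), and -0.27 without the 1-unit library. At 5 units 25.2% of the list's counts came from Vmn1r65, with 0, 26, 0 and 0 counts at the 4 doses. The 47 taste and trace amine receptor promoters stood at 1.35, 1.20, 0.588 and 0.545, a slope of -0.22 (-0.38 to -0.066), and -0.26 without the 1-unit library. Its 34 taste receptors stood at 1.31, 0.785, 0.617 and 0.515 and its 13 trace amine receptors at 1.47, 2.28, 0.513 and 0.624. In the 200 bp to each side of the start site this list's slope was -0.67, from few counts.

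These receptor promoters are A+T-rich, with a median of 34% G+C for olfactory receptors, 33.0% for vomeronasal receptors and 35.6% for taste and trace amine receptors. Had each receptor promoter carried the mean of the promoters outside its list in the same G+C stratum, the slopes of the members with a sequence would have been -0.12, -0.15 and -0.13, against -0.16, -0.20 and -0.20 observed. Class membership alone would have given -0.061 for olfactory receptors. The olfactory value over its G+C expectation was 1.09, 1.11, 0.952 and 0.940, a slope of -0.038 (-0.076 to -0.0003) with exact permutation p = 0.25. Promoters under 40% G+C were 1 stratum in this expectation. Olfactory receptors, 409 of them under 35% and 171 at 35% to 40%, were most of its 1031 promoters, so the expectation there rested on the smaller remainder. Olfactory promoters under 35% G+C (409) stood at 1.35 and 0.551 at 1 and 100 units, and low-CpG promoters of genes outside the chemosensory lists under 35% (43) at 1.38 and 0.415, with slopes of -0.21 (-0.26 to -0.16) and -0.26 (-0.44 to -0.081). At 35% to 40% the receptor slope (171) was -0.16 (-0.24 to -0.084) and that of the other genes (115) -0.090 (-0.19 to 0.006). At 40% to 45% the order was the other way, with -0.067 (-0.19 to 0.051) for receptors and -0.13 (-0.20 to -0.071) for other genes. At 45% and above the slopes were -0.076 (-0.19 to 0.037) for 62 receptors and 0.012 (-0.019 to 0.042) for 883 other promoters. That stratum is not matched in G+C, with medians of 48.6% for the receptors and 52.8% for the others. In every stratum the others are low-CpG only, while the receptors were not limited to a class. The 2 intervals overlap in each of these strata, and the differences between the 2 sets were not tested.

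Developmental regulators ran opposite to the receptors. The 173 promoters of Pax, Gata, Sox, Fox, T-box, homeodomain and related transcription factor genes outside the Hox clusters, which set up tissues in the embryo, stood at 0.684 (0.473 to 0.957), 0.832 (0.565 to 1.20), 1.00 (0.764 to 1.30) and 1.28 (1.03 to 1.56). The value was higher at each successive dose, with a slope of 0.14 (0.054 to 0.22), and 0.14 without the 1-unit library. Members with a count numbered 56, 52, 90 and 129 of 173, or 32.4%, 30.1%, 52.0% and 74.6%, beside 41.7%, 32.5%, 49.4% and 62.1% of all promoters. In the 200 bp to each side of the start site the slope was 0.007 (-0.16 to 0.18). Over the 300 bp downstream, relative to the flanks, the list's ratio was 0.585 (0.171 to 1.35) at 1 unit and 1.26 (0.649 to 2.22) at 100 units, so its course close to the start site could not be resolved at this depth.

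Their G+C expectation was flatter than their values. The median G+C of these regulators was 62.6%, and the expectation gave a slope of 0.025 against 0.16 observed in the 106 members with a sequence. The value over the expectation was 0.625, 0.911, 1.01 and 1.21, a slope of 0.14 (0.027 to 0.25) with exact permutation p = 0.0833, and 0.095 without the 1-unit library. Subgroups did not share 1 course: the 44 Fox genes stood at 0.855, 0.961, 0.552 and 1.37, the 17 Sox genes at 0.870, 0.742, 1.21 and 1.16, and the 11 Nkx genes at 0.336, 0.135, 1.34 and 1.45. Pax9, a regulator of tooth and pharyngeal pouch development, had 2, 3, 10 and 15 counts and Neurog2, a proneural factor, had 0, 8, 2 and 15.

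The 57 promoters of Wnt, Bmp, Fgf and hedgehog ligands, the secreted signals of embryonic patterning, stood at 0.595 (0.293 to 1.12), 1.29 (0.711 to 2.10), 1.17 (0.726 to 1.76) and 1.31 (0.892 to 1.85). The 1-unit value was the lowest, though the 4 intervals overlap. The slope of 0.15 (0.004 to 0.30) was 0.009 without it. Fgf4 had 6, 12, 6 and 4 counts and Shh, the hedgehog ligand of limb and neural tube patterning, had 0, 6, 10 and 7. The 40 Hox promoters stood at 0.601, 1.13, 0.631 and 0.941, with no order and a slope of 0.054 (-0.13 to 0.24).

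**Figure D5:**
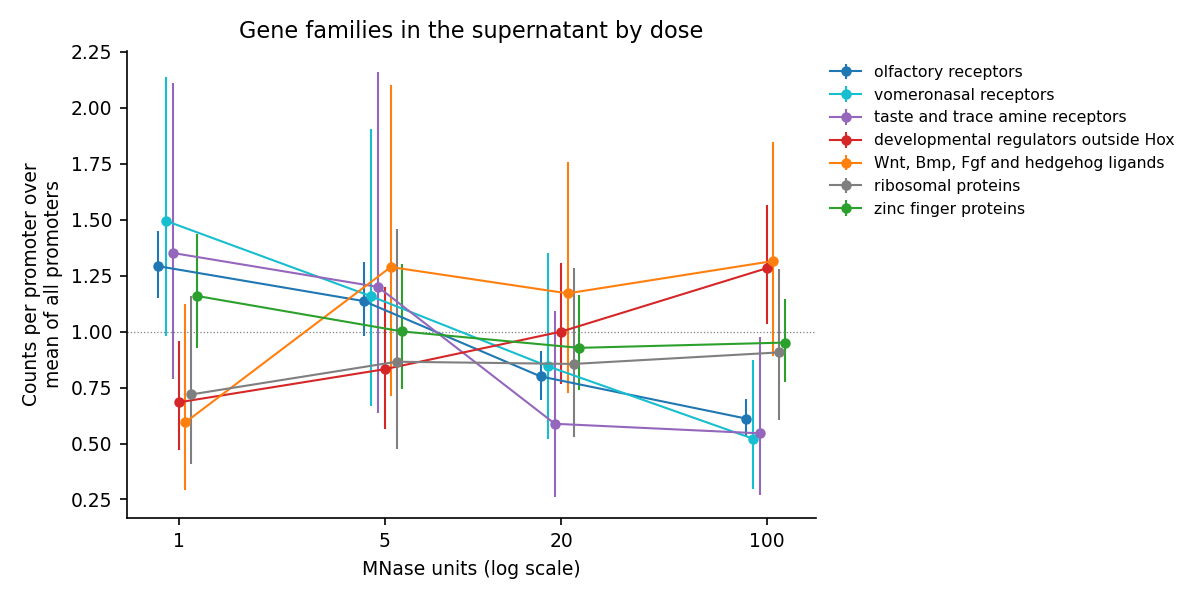
Counts within 1000 bp per promoter divided by the mean of all promoters (vertical axis) against MNase units on a log scale (horizontal axis) for 7 gene lists, with exact 95% counting intervals as bars. The 3 receptor lists go from 1.29 to 1.49 at 1 unit to 0.521 to 0.612 at 100 units, and developmental regulators outside Hox go from 0.684 to 1.28.

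The other lists gave intervals that include 0 or reach it. Ribosomal protein promoters (78) stood at 0.719, 0.865, 0.855 and 0.907, and proteasome subunits (37) at 0.800, 1.06, 0.966 and 0.666. The 161 promoters of the mitochondrial ribosome and respiratory chain, though nearly all high-CpG, were lower at each successive dose, at 1.15, 1.04, 0.858 and 0.834, with a slope of -0.076 (-0.15 to 0.003), and -0.071 without the 1-unit library. The 258 zinc finger promoters stood at 1.16, 1.00, 0.927 and 0.951.

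Among germ line genes, the 4 promoters of protamine and transition protein genes, whose products package sperm DNA, had 4, 2, 11 and 20 counts in all. Prm1, a protamine, had 0, 0, 2 and 3 counts and Tnp1, a transition protein, 4, 2, 3 and 6, which is too few to place them. Flagellum and energy genes (37) had a slope of -0.009 (-0.18 to 0.16), acrosome and fertilization genes (34) -0.079 (-0.26 to 0.10), meiotic genes (30) 0.030 (-0.14 to 0.20) and piRNA pathway and early germline genes (28) 0.037 (-0.13 to 0.21). Imprinted genes (35) stood at 1.06, 1.04, 1.01 and 0.946, with a slope of -0.024 (-0.19 to 0.14). Pluripotency genes (20) stood at 1.08, 1.45, 0.977 and 1.62, and Pou5f1, the embryonic stem cell regulator, had 2, 2, 0 and 7 counts.

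Clustered families other than the receptors also had wide intervals. Replication-dependent histones (38) had a slope of 0.11 (-0.081 to 0.30), protocadherins (51) -0.040 (-0.19 to 0.11), keratins and keratin-associated proteins (72) -0.033 (-0.14 to 0.075), defensins (29) 0.025 (-0.16 to 0.21) and cytochrome P450 genes (53) -0.048 (-0.18 to 0.086). Serpins (41) stood at 1.55, 1.14, 0.790 and 0.831. Their slope was -0.15 with an interval that just reached 0 (-0.29 to 0.0003), and -0.10 without the 1-unit library. Cytokines, chemokines and their receptors (150) had a slope of -0.023 (-0.098 to 0.052) and neurotransmitter receptors (90) 0.019 (-0.082 to 0.12). DNA is present in every cell, so marker genes cannot check the cell type here. Epididymal epithelium genes (46) stood at 0.885, 1.42, 0.818 and 0.952, and leukocyte genes (25) at 0.937, 1.63, 0.934 and 1.27, without an order.

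Single promoters could be compared only where coverage allowed. With the 2 upper doses pooled over the 2 lower ones, 75 promoters held at least 30 fragments within 5000 bp to each side. Of these, 5 (6.67%) were at least 2-fold higher and 7 (9.33%) at least 2-fold lower at the upper doses, and 35 (46.7%) were higher by any amount. The values nearest the 2-fold limit were 1.03 inside and 0.95 outside on the higher side, and -1.04 and -0.91 on the lower side, on the log2 scale. By class, 3 of 43 high-CpG, 1 of 15 intermediate-CpG and 1 of 17 low-CpG promoters were higher, and 3, 2 and 2 were lower. The class trend was not visible among these 75 promoters, where 46.5% of high-CpG and 47.1% of low-CpG promoters tested were higher. The 2 results are not alike, since the trend was taken within 1000 bp over all promoters. Over 5000 bp to each side the high-CpG slope was 0.013, against 0.031 within 1000 bp.

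The promoters named here were picked for their ratio, and the minimum was on the sum over the same 4 libraries. A promoter could pass it mainly through the doses where it was high, as the counts of Col7a1 and Trnt1 below show. The values and intervals are therefore a description. The intervals were not adjusted for the picking, so one that excludes 0 is no test. Col7a1, the gene of the anchoring-fibril collagen, had 4, 5, 39 and 38 counts within 5000 bp at the 4 doses, a log2 ratio of 2.18 (0.27 to 8.48). Tmem125 had 52, 86, 133 and 267 counts, a log2 ratio of 0.93 (0.26 to 1.77), nearly all beyond 1000 bp from its start site, where it had 4, 0, 5 and 0. At the other end, Trnt1, the enzyme that adds the CCA end to tRNAs, had 41, 24, 11 and 8 counts (-2.22, interval -4.77 to -0.36). Cyp2d40 had 19, 100, 27 and 13, of which 60 at 5 units lay in 1 bin. The intervals of the other 16 of the 20 named promoters included 0.

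The highest promoter did not follow the dose. Sfi1, which encodes a centrin-binding protein of the centrosome, had 93, 76, 90 and 111 counts within 1000 bp, several times more than any other. Its counts within 5000 bp were 23.8, 24.5, 19.3 and 17.9 per 10000 of the library, a log2 ratio of -0.38 (-0.78 to 0.01). Hjurp, the chaperone of the centromere histone, came next within 1000 bp, with 19, 7, 22 and 14 counts. Over the same distance Clstn1 had 3, 0, 4 and 31 counts and Ugt1a1, a bilirubin-conjugating enzyme, 4, 5, 6 and 27, both mostly at 100 units. Within 5000 bp they had 18, 4, 10 and 40 and 53, 41, 36 and 62 counts. The log2 ratios there were 0.51 (-1.58 to 2.62) for Clstn1 and -0.52 (-1.75 to 0.53) for Ugt1a1. Actb and Hoxa9 had 3, 2, 3 and 2 counts and 5, 8, 0 and 0 counts within 1000 bp.

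Set beside the pellet libraries of the same units, the supernatant had the lower high-CpG share at all 4 doses. The pellet held 60.8%, 64.1%, 66.9% and 72.1% of its counts at high-CpG promoters, 2.11, 2.39, 2.67 and 4.15 percentage points more. Its high-CpG downstream ratio was 0.825, 1.11, 1.26 and 2.17, against 0.630, 0.926, 1.06 and 1.69 in the supernatant. Both differences had the same sign at every dose, for which an exact sign-flip test gives a two-sided p of 0.125, the smallest it allows with 4 doses. Olfactory receptors did not separate the fractions: the pellet stood at 1.35, 1.05, 0.917 and 0.599 and the supernatant at 1.29, 1.14, 0.800 and 0.612 (exact p = 0.75, mean difference -0.020). Low-CpG promoters of 54% G+C and above were higher in the supernatant at all 4 doses, at 1.08, 1.19, 1.25 and 1.29 against 1.07, 1.08, 0.982 and 1.07 (exact p = 0.125).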

How the data were processed

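Counts around start sites were deposited by the authors as 1 table per library, whole numbers not scaled to depth. Per the file headers each row is a start site with its RefSeq accession and CpG class. Alignment to mm9 used Bowtie (no version) and SAMtools 0.1.16, per the submitters' processing notes. Not given in the sources used here: fragment sizes, duplicate handling, class limits. The 16493 rows hold 16482 unique start sites. RefSeq (GRCm38.p6) gave a symbol to 16278 and a single promoter sequence to 10554, for names and base composition only.

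Sums within 1000 bp, start-site ratios over the flanks at 1000 to 2000 bp and log2 slopes on log2 units were computed in Python 3.11.15 with numpy 2.4.6, pandas 2.3.3 and scipy 1.17.1, and tested on simulated data. Trends were tested by exact permutation over the 24 orderings of the doses. A promoter was called at 2-fold after adding 1 fragment. Named genes were the 10 highest promoters, the 10 highest and 10 lowest ratios among those tested, the 2 members of each list with most counts, and a fixed set. The libraries, lists and tests were chosen with earlier results of these data known. Alternatives are described in the closing section. Nanog, Gapdh and Prm2 were not analysed here.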

Additional observations from a re-analysis of the deposited data

How the results depend on the processing

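No paired analysis was possible between doses because each is 1 library; only the comparison with the pellet matches libraries, by dose. Of 148 alternative values for the 14 class, ratio and main list slopes, 133 stayed within the counting interval of the value reported. With 200 bp to each side the slopes were -0.22 for olfactory, -0.67 for taste and trace amine receptors, 0.0065 for developmental regulators, 0.40 for Wnt, Bmp, Fgf and hedgehog ligands and 0.041 for high-CpG promoters. Over the whole 5000 bp the high-, intermediate- and low-CpG slopes were 0.013, -0.011 and -0.038. Scaled to the counts beyond 2000 bp they were 0.093, 0.021 (the intermediate-CpG sign turned) and -0.0060, and -0.11 for olfactory receptors; that scale adds the gain of all promoters near the start site. With the 20 bp bins of the header the high-CpG downstream slope was 0.16. Leaving out each dose gave -0.21 to -0.16 for olfactory receptors, and 0.073 to -0.0025 for the high-CpG upstream ratio, which turned without the 100-unit library. The single promoters 2-fold higher and lower numbered 0 and 0 in 1000 bp windows, where only Sfi1, with 370 counts, reached the minimum. The next highest sum there was 62, at Hjurp. With no minimum they numbered 2135 and 2541 of all 16482 start sites. For 100 over 5 units they were 10 and 16 of the same 75 promoters. At a minimum of 15 fragments they were 955 and 863, out of a number of promoters not given here. These calls depend on the minimum, and 1 fragment decides many of the ratios at low sums. Limits are 1 library per dose, an unknown spread between digestions, 0.484 to 1.11 fragments per promoter within 1000 bp, a 1-unit library of another signal width, unstated fragment sizes, and GRCm38.p6 sequences that may use another start site than the tables.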

Other observations

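The X chromosome stood apart from the autosomes at every dose. Each sperm carries either an X or a Y chromosome, so X-linked DNA is present in a part of the cells. The 566 X-linked promoters had 0.571 (0.523 to 0.622) times the counts per promoter of the autosomes within 5000 bp of the start site at 1 unit, 0.459 (0.408 to 0.515) at 5 units, 0.453 (0.411 to 0.497) at 20 units and 0.426 (0.388 to 0.466) at 100 units. The 1-unit interval lies above those of the other 3 doses. Among high-CpG promoters alone the X ratio was 0.580, 0.428, 0.476 and 0.413, and among low-CpG promoters 0.628, 0.555, 0.384 and 0.492. The lowest autosome at the 4 doses stood at 0.904 to 0.947 and the highest at 1.07 to 1.13. The ratio was lower at each successive dose, a slope of -0.059 (-0.086 to -0.033) with exact permutation p = 0.0833, the smallest the 4 doses allow, and -0.025 without the 1-unit library.

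Clusters whose counts were all multiples of a number above 1 were common. They made up 25.4% of the isolated clusters of 3 to 5 bins at 1 unit, 28.7% at 5 units, 18.1% at 20 units and 16.7% at 100 units. At 1 unit only 11.4% of isolated clusters had that width, against 74.5% to 86.2% at the other doses. The 1-unit figure therefore covers a minority of its clusters and is not comparable with the others. Whether these are 1 fragment counted more than once was not tested, since duplicate handling is not stated. The 5-unit library had the fewest counts and the largest such share.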
